A study of Mus musculus with 3 samples.

Results

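Pyramidal nuclei of area CA2 of the hippocampus were picked out of single-nucleus RNA libraries by 6 genes known to mark that area, Rgs14, Cacng5, Map3k15, Necab2, Ntf3 and Amigo2. A nucleus counted as CA2 when it had 500 or more detected genes and at least 3 of the 6 marker genes with a UMI (unique molecular identifier, a tag that counts 1 captured RNA molecule). The 6 genes had to sum to 3 or more per 10000 UMIs of the nucleus, with at least 1 UMI of the vesicular glutamate transporter Slc17a7. The GABA-synthesis genes Gad1 and Gad2 together had to stay at or under 1 per 10000. Of 26480 nuclei with 500 or more genes, among 27426 barcodes in all, 82 met this rule. They were 47 of 8621 nuclei in mouse 1 (0.545%, exact 95% Clopper-Pearson interval 0.401 to 0.724), 18 of 13201 in mouse 2 (0.136%, 0.0808 to 0.215) and 17 of 4658 in mouse 3 (0.365%, 0.213 to 0.584). These intervals cover counting error only.

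The libraries came from the hippocampus of 3 adult female mice of genotype Scn8aD/+, titled post-onset 1 to 3, and all 3 form 1 group, so nothing here compares genotypes or treatments. Scn8a encodes the sodium channel alpha subunit Nav1.6, and the labels give the D allele without further description. Nuclei stained with propidium iodide were sorted before loading on the 10x 3' platform, and each mouse carries its own batch number, which makes mouse and batch inseparable. The comparisons below therefore lie between CA2 nuclei and CA1, CA3 or dentate granule nuclei of the same mice, which were chosen by rules of the same form.

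Area CA2 is a short field between CA3 and CA1 whose pyramidal neurons receive input from the entorhinal cortex, the supramammillary nucleus and CA3, and in mice they are needed for social recognition memory. Their Schaffer collateral synapses are known to resist long-term potentiation, with the scaffold and G protein regulator RGS14 and strong calcium buffering and extrusion named as reasons. Their cell bodies and dendrites are wrapped in perineuronal nets, and CA2 is known as the hippocampal field that loses fewer neurons than its neighbours in temporal lobe epilepsy.

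The rule asks for libraries with 20 or more CA2 nuclei, and mouse 1 alone has them. Genes with the largest differences were therefore named from mouse 1, where 1 summed library per class allows no test. A test over all 3 mice was added after the numbers of nuclei were seen, with 18 and 17 nuclei behind the CA2 sums of mice 2 and 3. Up to 4 genes per list were named by the smallest adjusted p of that test, in which all 3 mice took part. It is an edgeR quasi-likelihood fit blocked by mouse, its p-values are adjusted by Benjamini-Hochberg over 13980 genes, and every adjusted p below comes from it unless another fit is named. Calls needed an adjusted p below 0.05 together with a 2-fold difference or more. Levels are CPM, UMIs of a gene per 1000000 UMIs summed over the nuclei of a class, and are given for mice 1, 2 and 3 in that order. A pair of values in parentheses such as x ± y is the edgeR log2 fold change over the class just named, with a standard error. This error was worked out from the log2 fold change and the F statistic of the test.

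Median depth was 8859, 1711 and 25775 UMIs per barcode in the 3 libraries, and 18421, 7095 and 53992 UMIs per CA2 nucleus. The CA2 sums held 1099147, 300389 and 910064 UMIs. CA1 nuclei numbered 1327, 389 and 789, CA3 nuclei 391, 194 and 227, and granule nuclei 840, 346 and 58. Between 13 and 36 barcodes were shared by any pair of libraries, and 1 CA2 nucleus of mouse 3 had such a barcode. A doublet caller marked 6, 1 and 0 of the CA2 nuclei, which were kept. Its automatic threshold marked 0 of 13201 nuclei in mouse 2, so a threshold at the expected rate was used there and the marks of mouse 2 are not of the same kind as those of mice 1 and 3.

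The genes of the rule chose the nuclei, so their levels are a description. Rgs14, the G protein signalling regulator, was at 144, 93.2 and 65.9 CPM in CA2 nuclei and at 45.1, 26.2 and 24.4 CPM in CA1 nuclei. Amigo2, an adhesion protein, was at 84.6, 69.9 and 62.6 CPM in CA2 nuclei and at 10.4, 6.71 and 7.77 CPM in CA3 nuclei. Ntf3, the neurotrophin NT-3, was at 55.5, 127 and 134 CPM in CA2 nuclei, and the transmembrane AMPA receptor regulatory protein gene Cacng5 at 25.5, 59.9 and 42.9 CPM. Calcium-binding Necab2 was at 121, 59.9 and 76.9 CPM and the kinase gene Map3k15 at 46.4, 63.3 and 75.8 CPM in CA2 nuclei. Exactly 3 of the 6 genes were detected in 21 of 47 CA2 nuclei of mouse 1, 11 of 18 of mouse 2 and 1 of 17 of mouse 3, the deepest library. Just inside the sum threshold, between 3 and 4 per 10000, lay 19, 4 and 7 nuclei. Just outside it, between 2 and 3 per 10000, lay 28, 9 and 16, and another 53, 43 and 7 nuclei failed with 2 of the 6 markers.

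**Figure D1:**
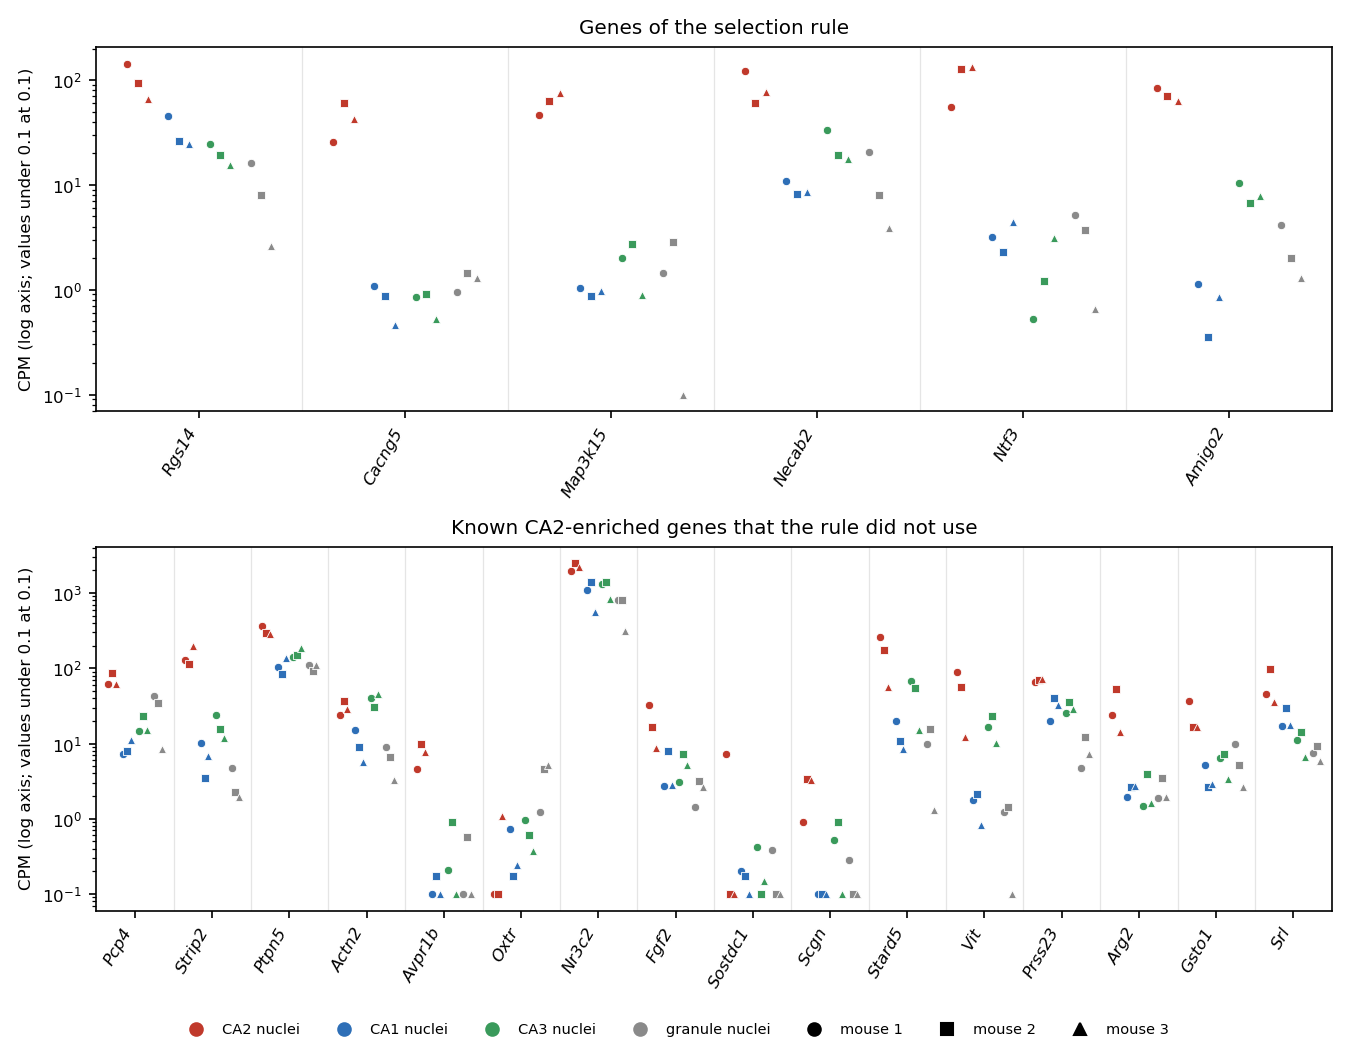
Level of each gene in CPM (log axis, values under 0.1 drawn at 0.1) in CA2, CA1, CA3 and granule nuclei, with 1 symbol per mouse. The upper panel shows the 6 genes that chose the nuclei, and the lower panel 16 known CA2-enriched genes that the rule did not use, of which Strip2 lies between 113 and 199.99 CPM in CA2 nuclei and under 24 CPM elsewhere.

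Most tested genes known from the mouse hippocampus to be enriched in CA2, which the rule did not use, were high in these nuclei. The members of this list, like the rule, were chosen with earlier results of these data known, which limits these calls as support for the label. Of 16 listed, 13 had enough counts to be tested over the 3 mice, and 13 were called higher in CA2 than in CA1 nuclei and 11 higher than in CA3 nuclei. Over all genes tested 4.13% were called higher in CA2 than in CA1 and 2.66% higher than in CA3. The 3 that were not tested were Oxtr, Sostdc1 and Scgn, all with 8 or fewer UMIs in the CA2 nuclei of the 3 mice together. The median log2 fold change of the 13 was 2.74 over CA1 and 2.00 over CA3, beside -0.07 and -0.06 over all genes tested. Against CA3, 7 of 14 tested were called without mouse 1 and 6 of 14 without mouse 2. Against CA1, Actn2 was not called without mouse 2 (adjusted p = 0.171) or mouse 3 (adjusted p = 0.0606). Fgf2 was not called against CA1 without mouse 1 (adjusted p = 0.139), and Nr3c2 not without mouse 2 or mouse 3.

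Strip2, which encodes a striatin-interacting protein, was at 127, 113 and 199.99 CPM in CA2 nuclei, against 10.1, 3.51 and 6.83 CPM in CA1 nuclei and 23.7, 15.5 and 12.02 CPM in CA3 nuclei. Its CA2 values lay above every CA1 and CA3 value (log2 fold change over CA3 3.18 ± 0.30, adjusted p = 0.000156). Pcp4, a calmodulin-binding protein long used to stain CA2, was at 61.9, 86.6 and 61.5 CPM in CA2 nuclei, against 14.6, 22.9 and 15.2 CPM in CA3 nuclei (2.00 ± 0.42, adjusted p = 0.0127). The lipid transfer gene Stard5 was at 261, 173 and 57.1 CPM in CA2 nuclei, against 19.8, 10.9 and 8.37 CPM in CA1 nuclei (3.52 ± 0.32, adjusted p = 4.70e-05). Stard5 was lowest in mouse 3, where the CA2 level of 57.1 CPM lay under the CA3 level of mouse 1, at 67.7 CPM. Without mouse 2, Pcp4 was not called against CA3 (adjusted p = 0.137).

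Srl, the calcium-binding sarcalumenin, was at 45.5, 96.5 and 35.2 CPM in CA2 nuclei, against 11.1, 14.3 and 6.72 CPM in CA3 nuclei (2.37 ± 0.22, adjusted p = 0.000149). The mitochondrial arginase Arg2 was at 23.7, 53.3 and 14.3 CPM in CA2 nuclei, against 1.48, 3.96 and 1.64 CPM in CA3 nuclei (3.66 ± 0.38, adjusted p = 0.000255). Ptpn5, the striatal-enriched phosphatase STEP, was at 368, 293 and 289 CPM in CA2 nuclei, against 104, 83.4 and 135 CPM in CA1 nuclei (1.65 ± 0.17, adjusted p = 0.000118). All 3 genes had their lowest CA2 value above their highest value in the class they are set against.

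Receptor genes of this list were less even. Avpr1b, the vasopressin 1b receptor that CA2 is known for, had 5, 3 and 7 UMIs in CA2 nuclei, or 4.55, 9.99 and 7.69 CPM, and 2 UMIs in all CA1 nuclei of the 3 mice (adjusted p = 0.000386). It was detected in 8.51%, 16.7% and 35.3% of CA2 nuclei, highest in the deepest library. Oxtr, the oxytocin receptor, had 1 UMI in the CA2 nuclei of the 3 mice. Nr3c2, the mineralocorticoid receptor, was at 1944, 2497 and 2183 CPM in CA2 nuclei, against 1093, 1403 and 551 CPM in CA1 nuclei (1.33 ± 0.26, adjusted p = 0.00542). This call was lost without mouse 2 (adjusted p = 0.069), and without mouse 3 the log2 fold change was 0.88, under the 2-fold limit. Against CA3 its log2 fold change was 0.98 (adjusted p = 0.0326), just under the 2-fold limit. Actn2, an actin-crosslinking actinin, was at 23.7, 36.6 and 28.6 CPM in CA2 nuclei, against 40.4, 30.5 and 45.5 CPM in CA3 nuclei, with overlapping values and an adjusted p of 0.445.

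Promoters of the listed CA2 genes with the smallest adjusted p against CA3 and a single RefSeq entry, Strip2 and Gsto1, are shown because these genes carry the CA2 label without having been used to choose nuclei. Gsto1 encodes a glutathione S-transferase and was at 36.4, 16.6 and 16.5 CPM in CA2 nuclei, against 6.35, 7.32 and 3.36 CPM in CA3 nuclei (2.15 ± 0.33, adjusted p = 0.00215). Its call against CA3 was lost without mouse 1 (adjusted p = 0.0667). Each sequence runs 5′ to 3′ over 300 bases around the gene's start on GRCm38.p6, both genes on the plus strand, at chr6:29916763-29917062 for Strip2 and chr19:47854723-47855022 for Gsto1. Capitals mark GGGCGG (a GC box) and TGACG (the core of the cyclic AMP response element), searched on both strands together with TATAAA and CACGTG, so that a match on the minus strand appears as its reverse complement.
Strip2: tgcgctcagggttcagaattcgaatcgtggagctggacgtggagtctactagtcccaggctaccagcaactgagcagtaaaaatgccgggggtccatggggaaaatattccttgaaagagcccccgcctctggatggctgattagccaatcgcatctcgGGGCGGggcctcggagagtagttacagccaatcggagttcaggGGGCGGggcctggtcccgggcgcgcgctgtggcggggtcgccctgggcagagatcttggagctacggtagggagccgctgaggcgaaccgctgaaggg
Gsto1: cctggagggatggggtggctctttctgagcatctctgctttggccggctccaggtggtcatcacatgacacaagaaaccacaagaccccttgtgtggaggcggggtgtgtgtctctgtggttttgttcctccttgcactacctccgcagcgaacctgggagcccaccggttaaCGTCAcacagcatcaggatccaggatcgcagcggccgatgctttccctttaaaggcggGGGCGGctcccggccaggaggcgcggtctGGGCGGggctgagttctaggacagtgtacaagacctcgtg
Strip2 held 2 GC boxes and none of the other 3 motifs, and Gsto1 held 2 GC boxes and 1 TGACG. Among 32851 RefSeq promoters of the same length, 35.7% held GGGCGG, 20.8% TGACG, 13.6% TATAAA and 7.15% CACGTG. These matches describe letters and are not binding sites.

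The label was also checked by clustering all nuclei without the genes of the rule or of the other gates. Of the 82 CA2 nuclei, 53 fell into 1 of 60 clusters, which held 98 nuclei. They were 31 of 47 in mouse 1, 6 of 18 in mouse 2 and 16 of 17 in mouse 3. Clusters whose gate markers were those of CA3 held 5, 10 and 1 of the CA2 nuclei, so in mouse 2 more of them lay in CA3 clusters than in that cluster. The other nuclei of that cluster, 24, 7 and 14 that failed the rule, had Strip2 at 164, 138 and 138 CPM. Lrp2, Fyb2 and Vit led the cluster by fold over all other nuclei, as a description. Another cluster, with 21, 127 and 11 nuclei, also had 3 of the 6 rule genes at 2-fold or more over the rest of mouse 2 but held 0 nuclei that met the rule. Rgs14 was at 108, 76.5 and 49.2 CPM in the cluster with most CA2 nuclei, against 5.59, 4.31 and 6.76 CPM in this other one. Strip2 was at 165, 124 and 171 CPM in the cluster with most CA2 nuclei, against 0, 8.61 and 0 CPM.

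CA2 nuclei outside that cluster numbered 16, 12 and 1, and in mice 1 and 2 they carried more myelin RNA. In mouse 1 their myelin gene Mbp was at 249 CPM, against 10.3 CPM in CA2 nuclei inside it, and in mouse 2 it was at 135 CPM, against 4.28 CPM. Over all CA2 nuclei the 8 oligodendrocyte markers summed to 363, 89.9 and 20.9 CPM, and 228, 307 and 132 CPM in CA1 nuclei. Mog, Mag, Mobp and Cldn11 were at 0 in CA2 nuclei of mouse 3. The 8 astrocyte markers summed to 62.8, 46.6 and 166 CPM in CA2 nuclei. Their sums were higher in every mouse in CA1 nuclei, at 115, 128 and 243 CPM, and in CA3 nuclei, at 314, 388 and 723 CPM. The 8 microglia markers summed to 60.05, 59.9 and 73.6 CPM in CA2 nuclei, and 60.2, 95.2 and 44.7 CPM in CA1 nuclei. The 10 inhibitory markers summed to 137, 107 and 36.3 CPM, and 70.06, 115 and 77.1 CPM in CA1 nuclei. The 8 oligodendrocyte precursor markers summed to 404, 296 and 185 CPM in CA2 nuclei, and 484, 474 and 606 CPM in CA1 nuclei. The 8 subicular and deep cortical markers summed to 246, 79.9 and 93.4 CPM in CA2 nuclei, and 438, 347 and 734 CPM in CA1 nuclei. The 8 endothelial and mural markers summed to 9.1, 0 and 7.69 CPM in CA2 nuclei. The 8 mossy cell markers summed to 723, 959 and 938 CPM in CA2 nuclei, beside 644, 893 and 1340.3 CPM in CA3 nuclei, with Csf2rb2 at 0 in CA2 nuclei of every mouse. The part of such RNA in the results below was not tested.

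Of the CA3 markers, the copine gene Cpne4 overlapped between the classes, at 897, 1055 and 653 CPM in CA2 nuclei and 813, 785 and 846 CPM in CA3 nuclei. Iyd and Prkcd had no UMI in any CA2 nucleus. Tspan18 was at 16.4, 0 and 5.49 CPM in CA2 nuclei, against 118, 163 and 72.2 CPM in CA3 nuclei. The CA1 marker Man1a was at 61.9, 26.6 and 45.1 CPM in CA2 nuclei, against 763, 755 and 863 CPM in CA1 nuclei. These markers chose the classes that CA2 is set against and were not tested.

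Against CA1 nuclei, CA2 nuclei of mouse 1 had 370 of 7171 measured genes at least 2-fold higher (5.16%) and 513 at least 2-fold lower (7.15%), 12.3% in all. Over the 3 mice, 578 of 13980 genes were called higher (4.13%) and 730 lower (5.22%), 9.36% in all. Mice 2 and 3 took no part in the 2-fold list of mouse 1. Of the 366 genes higher in mouse 1 that they also tested, 219 were called higher by edgeR in these 2 mice alone (59.8%, against 3.55% of all genes tested there). Of the 513 lower in mouse 1, 310 were called lower there (60.4%, against 4.79%). The genes of mouse 1 had at least 20 CPM in the higher class, while all genes tested include genes of fewer counts. The shares are therefore not of like genes. The count over 3 mice was 698 in all without the mouse block and 611 without mouse 2, and of the 69 genes called under the naming rule 55 still passed without mouse 2.

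The genes that stood highest over CA1 in mouse 1 were an endocytic receptor, secreted and matrix proteins and a sialyltransferase. Lrp2 (chromosome 2, 69424340 to 69586065), the endocytic receptor megalin, was at 46.4, 63.3 and 108 CPM in CA2 nuclei, against 0.401, 0.527 and 0.552 CPM in CA1 nuclei (7.23 ± 0.43, adjusted p = 6.95e-06). It was seen in 24 of 47, 4 of 18 and 12 of 17 CA2 nuclei, and 1 nucleus gave 11.8%, 42.1% and 24.5% of its UMIs. St8sia6 (chromosome 2, 13651021 to 13794064), a sialyltransferase, was at 111, 153 and 81.3 CPM in CA2 nuclei, against 3.05, 4.92 and 4.05 CPM in CA1 nuclei (4.84 ± 0.31, adjusted p = 8.19e-06). Ccdc3, a secreted coiled-coil protein, was at 51.9, 103 and 61.5 CPM in CA2 nuclei, against 1.64, 2.81 and 2.76 CPM in CA1 nuclei (4.86 ± 0.27, adjusted p = 3.97e-06). In each of these genes the CA2 values lay above all CA1 values.

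Fgf5 (chromosome 5, 98254184 to 98277030), a fibroblast growth factor, was at 117, 43.3 and 80.2 CPM in CA2 nuclei, against 4.29, 2.63 and 6.07 CPM in CA1 nuclei (4.24 ± 0.28, adjusted p = 8.19e-06). Vit, the matrix protein vitrin, was at 88.3, 56.6 and 12.1 CPM in CA2 nuclei, against 1.8, 2.11 and 0.827 CPM in CA1 nuclei (5.08 ± 0.39, adjusted p = 1.68e-05). Its CA2 level was lowest in mouse 3 and still above all CA1 values. Ccbe1, a secreted protein with calcium-binding EGF domains, was at 335, 349.5 and 137 CPM in CA2 nuclei, against 10.5, 14.6 and 7.02 CPM in CA1 nuclei (4.69 ± 0.24, adjusted p = 3.46e-06), while CA3 nuclei had 352, 294 and 121 CPM.

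The rule for named genes also picked 2 genes that mouse 1 alone carried. Tmprss11a, a transmembrane serine protease, was at 44.6, 0 and 0 CPM in CA2 nuclei, and 1 nucleus held 100% of its 49 UMIs. Rasef, a Rab-type GTPase, was at 34.6, 0 and 0 CPM, with 73.7% of its 38 UMIs in 1 of 3 nuclei. Neither had enough counts to be tested over the 3 mice. The value of Tmprss11a rests on 1 nucleus of mouse 1, and that of Rasef mostly on 1.

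Genes lowest against CA1 included a calcium buffer and a layer-forming signal. Calb1, the calcium buffer calbindin, was at 1.82, 6.66 and 2.2 CPM in CA2 nuclei, against 47.3, 25.99 and 19.98 CPM in CA1 nuclei (-3.47 ± 0.56, adjusted p = 0.00189). Reln, the secreted glycoprotein reelin, had 4 CA2 UMIs in 3 mice and was at 0.91, 3.33 and 2.2 CPM in CA2 nuclei, against 31.3, 16.3 and 35.8 CPM in CA1 nuclei (-3.96 ± 0.95, adjusted p = 0.017). Nfkbiz, a nuclear regulator of NF-kappaB target genes, was at 1.82, 3.33 and 2.2 CPM in CA2 nuclei, against 37.6, 36.9 and 36.6 CPM in CA1 nuclei (-4.04 ± 0.47, adjusted p = 0.000222), and CA3 nuclei had 37.7, 29.3 and 42.3 CPM. Dpy19l1, a mannosyltransferase, was at 1.82, 3.33 and 8.79 CPM in CA2 nuclei, against 52.6, 29.3 and 59.6 CPM in CA1 nuclei (-3.30 ± 0.55, adjusted p = 0.00227). The call of Reln was lost without mouse 1 (adjusted p = 0.0596) and without mouse 2 (adjusted p = 0.0666).

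The Ras-like gene Rasl10a had 1 UMI in the CA2 nuclei of the 3 mice and was at 29.1, 24.6 and 2.08 CPM in CA1 nuclei (adjusted p = 0.00244), a call that was lost without mouse 1 (adjusted p = 0.0706). Cpa6, a carboxypeptidase, was low in mouse 1 but not called over the 3 mice, at 0.91, 3.33 and 7.69 CPM in CA2 nuclei, against 30.1, 1.93 and 31.5 CPM in CA1 nuclei (adjusted p = 0.204). Its CA1 level in mouse 2 lay among the CA2 values.

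**Figure D2:**
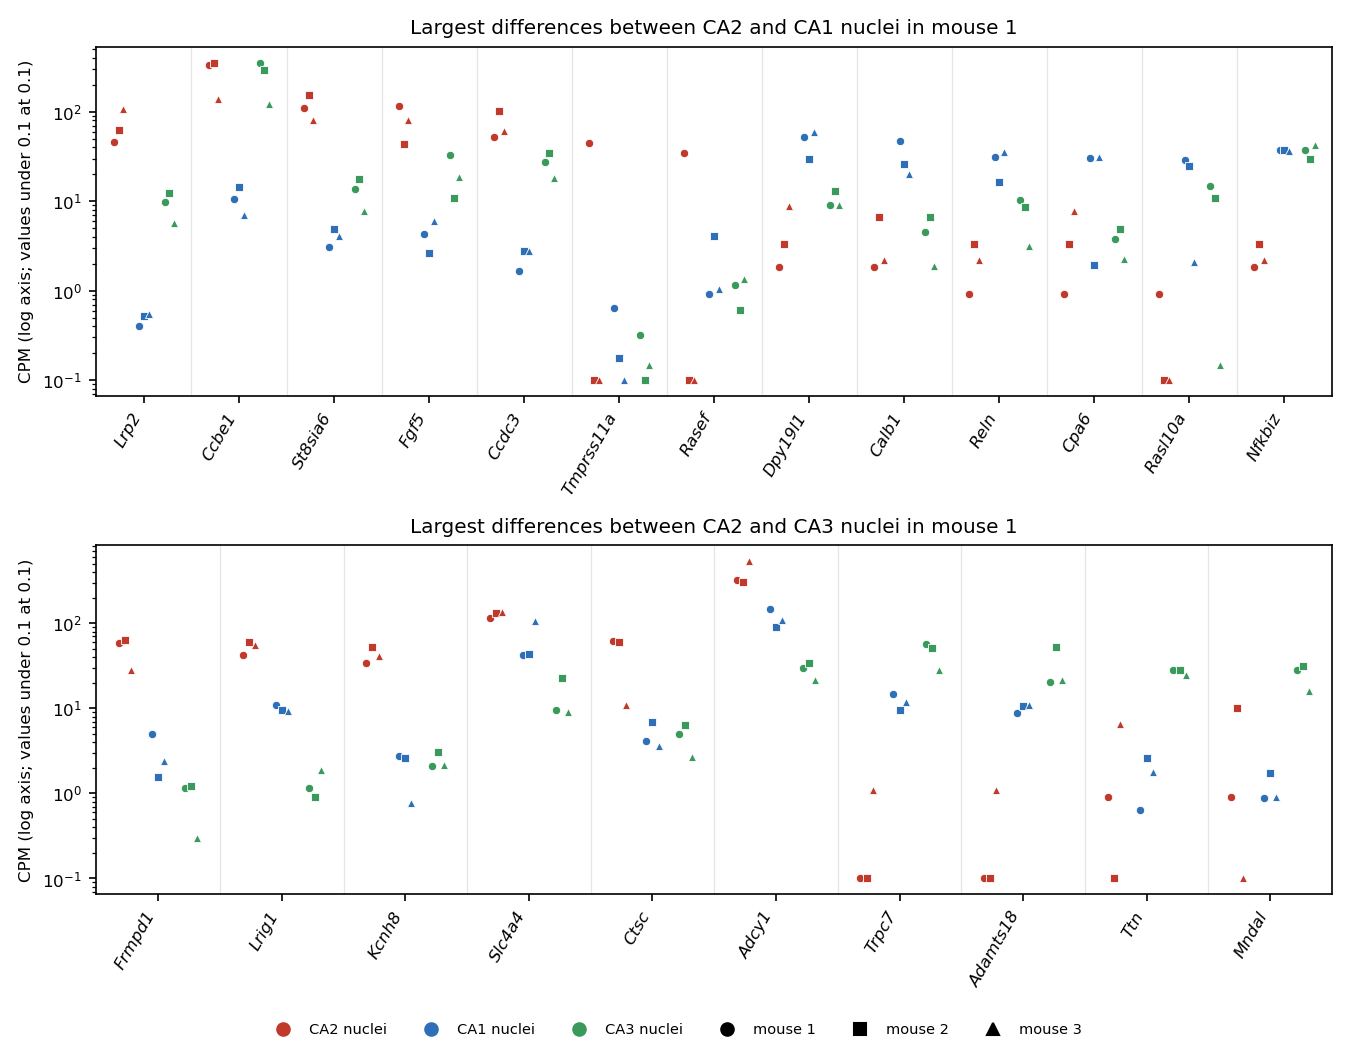
Level in CPM (log axis, values under 0.1 drawn at 0.1) of genes with the largest differences in mouse 1, in CA2, CA1 and CA3 nuclei, with 1 symbol per mouse. Lrp2 is at 46.4 CPM or more in CA2 nuclei of every mouse, while Tmprss11a and Rasef have a CA2 value above 0.1 in mouse 1 only.

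Against CA3 nuclei, 343 of 7103 measured genes were at least 2-fold higher in CA2 nuclei of mouse 1 (4.83%) and 366 at least 2-fold lower (5.15%), 9.98% in all. Over the 3 mice 372 genes were called higher (2.66%) and 559 lower (4.0%), 6.66% in all. In mice 2 and 3 alone, edgeR called 143 of the 339 genes higher in mouse 1 as higher (42.2%, against 2.14% of all genes tested). It called 195 of the 366 lower genes as lower (53.3%, against 3.95%). The opposite call was made for 5 of the 339 and 0 of the 366, and 274 and 351 kept their direction. As against CA1, the shares are not of like genes. The count over 3 mice was 377 in all without the mouse block, 253 without mouse 2 and 605 without mouse 3, and of the 64 genes called under the naming rule 31 still passed without mouse 2.

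Frmpd1 (chromosome 4, 45184875 to 45285936), a FERM and PDZ domain scaffold, was at 59.1, 63.3 and 28.6 CPM in CA2 nuclei, against 1.16, 1.22 and 0.299 CPM in CA3 nuclei (5.96 ± 0.48, adjusted p = 7.64e-05). Lrig1, a membrane protein that restrains growth factor receptors, was at 42.8, 59.9 and 54.9 CPM in CA2 nuclei, against 1.16, 0.915 and 1.87 CPM in CA3 nuclei (5.21 ± 0.55, adjusted p = 0.000275). Adcy1 (chromosome 11, 7063489 to 7178506), the adenylyl cyclase that calcium and calmodulin stimulate, was at 325, 306 and 537 CPM in CA2 nuclei, against 29.95, 33.8 and 21.4 CPM in CA3 nuclei (3.84 ± 0.31, adjusted p = 7.64e-05). For all 3 genes every CA2 value was above every CA3 value, and they rest on 110, 115 and 938 CA2 UMIs.

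Kcnh8, an ether-a-go-go-like potassium channel, was at 34.6, 53.3 and 41.8 CPM in CA2 nuclei, against 2.12, 3.05 and 2.17 CPM in CA3 nuclei (4.13 ± 0.47, adjusted p = 0.000395). The sodium bicarbonate cotransporter Slc4a4 was at 116, 133 and 136 CPM in CA2 nuclei, against 9.53, 22.9 and 8.96 CPM in CA3 nuclei (3.34 ± 0.48, adjusted p = 0.0016). Ctsc, the lysosomal protease cathepsin C, was at 62.8, 59.9 and 10.99 CPM in CA2 nuclei, against 4.97, 6.4 and 2.69 CPM in CA3 nuclei (3.21 ± 0.41, adjusted p = 0.000722). Of these, Ctsc varied most among mice in CA2, with mouse 3 lowest but above all CA3 values.

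Some CA3 genes were nearly silent in CA2 nuclei. Trpc7, a diacylglycerol-gated cation channel, had 1 UMI in the CA2 nuclei of the 3 mice and was at 57.2, 51.8 and 28.4 CPM in CA3 nuclei (adjusted p = 0.000705). Adamts18, a secreted metalloprotease, also had 1 CA2 UMI and was at 20.5, 53.4 and 21.7 CPM in CA3 nuclei (adjusted p = 0.00333).

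Ttn, the muscle protein titin, was at 0.91, 0 and 6.59 CPM in CA2 nuclei, against 28.6, 28.4 and 24.4 CPM in CA3 nuclei (-3.14 ± 0.60, adjusted p = 0.00735). Mndal, a nuclear protein of the interferon-inducible family, was at 0.91, 9.99 and 0 CPM in CA2 nuclei, against 28.4, 31.1 and 15.8 CPM in CA3 nuclei (-3.67 ± 0.74, adjusted p = 0.0103). The CA2 values of both rest on 7 and 4 UMIs over the 3 mice. Without mouse 2 neither was called (adjusted p = 0.0643 and 0.056), and Mndal not without mouse 1 (adjusted p = 0.059).

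Calcium handling, one of the features CA2 is known for, differed gene by gene. Of 34 listed genes 32 were tested, and 4 were called higher and 7 lower than in CA1, and 3 higher and 0 lower than in CA3. These are 12.5% higher and 21.9% lower than in CA1, beside 4.13% and 5.22% of all genes, and 9.38% higher and 0% lower than in CA3, beside 2.66% and 4.0%. Without mouse 2, 2 were called higher and 6 lower than in CA1. Hpca, the calcium sensor hippocalcin, was at 167, 146 and 133 CPM in CA2 nuclei, against 73.8, 69.7 and 43.3 CPM in CA1 nuclei (1.39 ± 0.20, adjusted p = 0.000925). It was not called against CA3. Itpr1, the inositol trisphosphate receptor that releases stored calcium, was at 124, 83.2 and 79.1 CPM in CA2 nuclei, against 400.5, 327 and 323 CPM in CA1 nuclei (-1.78 ± 0.20, adjusted p = 0.000167). Atp2b1, a plasma membrane calcium pump, was at 751, 659 and 845 CPM in CA2 nuclei, against 1323, 1516 and 1585 CPM in CA1 nuclei, and its log2 fold change of -0.89 fell short of the limit (adjusted p = 0.000752).

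Against CA3, Ryr1, a ryanodine receptor, was at 37.3, 56.6 and 40.7 CPM in CA2 nuclei, against 16.9, 13.4 and 11.5 CPM in CA3 nuclei (1.60 ± 0.31, adjusted p = 0.00734). Slc8a3, a sodium-calcium exchanger, was at 29.1, 46.6 and 129.7 CPM in CA2 nuclei, against 13.5, 25.00 and 10.1 CPM in CA3 nuclei (2.10 ± 0.45, adjusted p = 0.0128), with its highest CA2 level in mouse 3. Slc24a3, a potassium-dependent sodium-calcium exchanger, was at 594, 652 and 708 CPM in CA2 nuclei, against 398, 379 and 331 CPM in CA3 nuclei, and Atp2a2, the endoplasmic reticulum pump SERCA2, at 354, 373 and 654 CPM in CA2 nuclei, against 219.6, 208 and 302 CPM in CA3 nuclei. Both lay above CA3 in every mouse, and the fitted difference over the 3 mice was under 2-fold (log2 fold changes 0.84 and 0.91, adjusted p = 0.00488 and 0.00693). Leaving out mouse 2 left 0 of 33 calcium genes called against CA3. Adjusted p was then 0.0896 for Ryr1 and 0.0615 for Slc8a3, whose call was also lost without mouse 3 (adjusted p = 0.057).

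Among 46 G protein and cyclic nucleotide genes, 6 were called higher and 10 lower than in CA1, and 3 higher and 6 lower than in CA3. The shares are 13% higher and 21.7% lower against CA1, where all genes gave 4.13% and 5.22%, and 6.52% higher and 13% lower against CA3, where they gave 2.66% and 4.0%. Pde4d, which breaks down cyclic AMP, was at 3112, 3882 and 3316 CPM in CA2 nuclei, against 755, 834 and 1052 CPM in CA1 nuclei (2.06 ± 0.22, adjusted p = 0.000137). Prkca, protein kinase C alpha, was at 1705, 1841 and 2832 CPM in CA2 nuclei, against 638, 575 and 1231 CPM in CA1 nuclei (1.51 ± 0.14, adjusted p = 5.17e-05). Neither Pde4d nor Prkca was called against CA3. Adcy5, an adenylyl cyclase, was at 99.2, 136 and 245 CPM in CA2 nuclei, against 38.1, 22.8 and 30.1 CPM in CA1 nuclei and 38.6, 43.3 and 49.1 CPM in CA3 nuclei. It was called against both (log2 fold change 2.43 over CA1 and 1.86 over CA3, adjusted p = 0.000257 and 0.00215). Without mouse 2, 4 genes of the list were called higher and 5 lower than in CA1, and 1 higher and 2 lower than in CA3. Adcy5 was then not called against CA3 (adjusted p = 0.0639).

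Some relatives of the rule gene Rgs14 stood lower in CA2 nuclei. Rgs6 was at 31.8, 16.6 and 54.9 CPM in CA2 nuclei, against 138, 179 and 185 CPM in CA3 nuclei (-2.20 ± 0.28, adjusted p = 0.000784), and Rgs8 at 4.55, 0 and 3.3 CPM in CA2 nuclei, against 41.8, 51.8 and 72.4 CPM in CA3 nuclei (-3.98 ± 0.60, adjusted p = 0.002). The phosphodiesterase Pde8b was at 102, 96.5 and 73.6 CPM in CA2 nuclei, against 196, 236 and 286 CPM in CA1 nuclei (-1.32 ± 0.18, adjusted p = 0.000685). The CA2 values of these 3 genes lay under every value of the class they are set against.

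Neuromodulator receptors, 26 of 40 tested, had 1 called higher and 5 lower than in CA1, and 1 higher and 3 lower than in CA3. Over all genes 4.13% were called higher and 5.22% lower than in CA1, and in this list 3.85% higher and 19.2% lower. Against CA3 it was 3.85% higher and 11.5% lower, with 2.66% and 4.0% over all genes. The receptor higher in both was Htr7, a serotonin receptor coupled to cyclic AMP, at 70.96, 83.2 and 91.2 CPM in CA2 nuclei, against 9.46, 7.9 and 25.96 CPM in CA1 nuclei (2.67 ± 0.35, adjusted p = 0.000507). CA3 nuclei had 18.2, 25.6 and 76.1 CPM, which overlaps with CA2, and that call (adjusted p = 0.0465) was lost without mouse 1 (adjusted p = 0.351) and without mouse 2 (adjusted p = 0.235). Adra1a, an alpha-1 adrenergic receptor, had 3 UMIs in the CA2 nuclei of the 3 mice and was at 26.01, 33.9 and 103 CPM in CA1 nuclei (adjusted p = 0.000331). The beta-1 adrenergic receptor Adrb1 was at 6.37, 6.66 and 4.4 CPM in CA2 nuclei, against 20.6, 11.2 and 28.6 CPM in CA1 nuclei (-1.84 ± 0.35, adjusted p = 0.00493), a call lost without mouse 3 (adjusted p = 0.0895).

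Nr3c1, the glucocorticoid receptor, was at 32.8, 26.6 and 28.6 CPM in CA2 nuclei, against 86.7, 70.9 and 70.7 CPM in CA1 nuclei (-1.29 ± 0.16, adjusted p = 0.000372). Htr2c, a serotonin receptor, was at 20.02, 19.97 and 37.4 CPM in CA2 nuclei, against 109, 108 and 248 CPM in CA3 nuclei (-2.53 ± 0.36, adjusted p = 0.0014). Htr4, another serotonin receptor, was at 139, 149.8 and 171 CPM in CA2 nuclei, against 191, 281 and 560.4 CPM in CA3 nuclei (-1.04 ± 0.25, adjusted p = 0.0242), and the adrenergic receptor Adra1d had 7 CA2 UMIs in all (adjusted p = 0.0428). Adra1d lost its call whichever mouse was left out (adjusted p = 0.179, 0.153 and 0.19 without mouse 1, 2 and 3), and Htr4 not without mouse 2 (adjusted p = 0.168) or mouse 3 (adjusted p = 0.0769). Without mouse 2, 1 receptor was called higher and 3 lower than in CA1, and 0 higher and 1 lower than in CA3.

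Scn8a itself was at 493, 516 and 589 CPM in CA2 nuclei, against 419, 418 and 449 CPM in CA1 nuclei and 380.4, 359 and 455 CPM in CA3 nuclei. CA2 lay above CA1 and CA3 in every mouse, but the gene was not called, with a log2 fold change of 0.38 ± 0.13, adjusted p = 0.0862 over CA1 and 0.43 ± 0.13, adjusted p = 0.0735 over CA3. With each nucleus thinned to 3000 UMIs the log2 fold change over CA1 was -0.025. The 3' counts do not separate the D allele from the other one. Of the other sodium channel alpha subunits, Scn2a was at 445, 409 and 474 CPM in CA2 nuclei, against 383, 280.1 and 284 CPM in CA1 nuclei (0.57 ± 0.15, adjusted p = 0.0295), under 2-fold. Scn9a, which had 9 CA2 UMIs over the 3 mice, was the only alpha subunit of 6 tested that was called, lower than in CA1 (adjusted p = 0.00622) and CA3 (adjusted p = 0.0441). This is 16.7% of the list in each, beside 5.22% of all genes lower than in CA1 and 4.0% lower than in CA3. Against CA3 Scn9a was called neither without mouse 2 (adjusted p = 0.162) nor without mouse 3 (adjusted p = 0.24), and against CA1 not without mouse 3 (adjusted p = 0.0514).

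Scn3b, a sodium channel beta subunit, was called lower in CA2 nuclei than in CA1 and in CA3. It was at 21.8, 9.99 and 2.2 CPM in CA2 nuclei, against 127, 74.6 and 44.5 CPM in CA1 nuclei (-2.83 ± 0.32, adjusted p = 0.000207) and 83.5, 60.1 and 29.7 CPM in CA3 nuclei (-2.39 ± 0.33, adjusted p = 0.00129). No CA2 value of Scn3b overlapped with CA1 or CA3 values. Fgf12, an intracellular partner of the channel, was at 989.9, 1258 and 2189.96 CPM in CA2 nuclei, against 812, 804 and 861 CPM in CA3 nuclei, under 2-fold (log2 fold change 0.81, adjusted p = 0.0359).

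Potassium channels, 48 of them tested, included 6 genes called higher and 8 called lower than in CA1, with 5 higher and 3 lower than in CA3. These are 12.5% higher and 16.7% lower than in CA1, beside 4.13% and 5.22% of all genes, and 10.4% higher and 6.25% lower than in CA3, beside 2.66% and 4.0%. Kcnq5 (chromosome 1, 21398403 to 21961942), a subunit of the M-current, was at 3685, 4005 and 3914 CPM in CA2 nuclei, against 965, 772 and 927 CPM in CA1 nuclei (2.19 ± 0.28, adjusted p = 0.00039), while its relative Kcnq3 was at 287, 153 and 198 CPM in CA2 nuclei, against 608, 611 and 517 CPM in CA1 nuclei (-1.34 ± 0.19, adjusted p = 0.00092). The voltage-gated channel genes Kcnh1 and Kcna6 were called higher than in CA1, with log2 fold changes of 1.39 and 1.83 (adjusted p = 0.00036 and 0.000965). The 2 M-current subunits thus differed from CA1 in opposite directions in each mouse. Kcnq3 was also called lower than in CA3, while Kcnq5 and Kcnh1 were not called there.

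Against CA3, the background channel Kcnk2, known as TREK-1, was at 166, 289.6 and 129 CPM in CA2 nuclei, against 22.2, 48.2 and 17.4 CPM in CA3 nuclei (2.78 ± 0.30, adjusted p = 0.000297). Kcnd2, the A-type channel Kv4.2, was at 3273, 3745 and 6579 CPM in CA2 nuclei, against 1823, 1830.2 and 1701 CPM in CA3 nuclei (1.31 ± 0.20, adjusted p = 0.00202). The fast delayed rectifier gene Kcnc2 was at 118, 63.3 and 30.8 CPM in CA2 nuclei, against 582, 488 and 233 CPM in CA3 nuclei (-2.55 ± 0.36, adjusted p = 0.00132). No CA2 value of these 3 genes overlapped with a CA3 value. Without mouse 2, 2 channels of the list were called higher and 1 lower than in CA3, and without mouse 1, 10 were called higher than in CA1. Kcnd2 was not called without mouse 2 (adjusted p = 0.068), and without mouse 3 its log2 fold change was 0.95, under the 2-fold limit.

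The list of voltage-gated calcium and HCN channels also held AMPA receptor regulator genes such as Cacng2 and Cacng3. Among its 23 tested genes, 3 were called higher and 5 lower than in CA1, and 1 higher and 5 lower than in CA3. Cacng3 was among those lower than in CA1 and in CA3, and Cacng2 among those lower than in CA3. The shares are 13% higher and 21.7% lower against CA1, where all genes gave 4.13% and 5.22%, and 4.35% higher and 21.7% lower against CA3, where they gave 2.66% and 4.0%. The pore subunits Cacna1a and Cacna1c were higher than in CA1, at 1174, 975 and 913 and 902, 942 and 918 CPM in CA2 nuclei, against 579.97, 477 and 451 and 396, 432 and 508 CPM in CA1 nuclei (adjusted p = 0.00038 and 0.000258). Neither was called against CA3. The T-type gene Cacna1g was at 14.6, 13.3 and 3.3 CPM in CA2 nuclei, against 82.97, 66.03 and 85.4 CPM in CA1 nuclei (-2.93 ± 0.35, adjusted p = 0.000299). Cacng3, of the same family of AMPA receptor regulators as the rule gene Cacng5, was at 21.8, 9.99 and 4.4 CPM in CA2 nuclei, against 107, 101 and 137 CPM in CA1 nuclei (-3.04 ± 0.39, adjusted p = 0.000397). Cacng2, the regulator stargazin, was at 23.7, 13.3 and 10.99 CPM in CA2 nuclei, against 80.8, 84.5 and 75.7 CPM in CA3 nuclei (-2.24 ± 0.26, adjusted p = 0.000421). Against CA3 0 genes of the list were called higher and 2 lower without mouse 2, and 0 and 3 without mouse 3.

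Among 23 tested glutamate receptors, 2 were called higher and 4 lower than in CA1, and 1 higher and 2 lower than in CA3. Over all genes 4.13% were called higher and 5.22% lower than in CA1, and in this list 8.7% higher and 17.4% lower. Against CA3 it was 4.35% higher and 8.7% lower, with 2.66% and 4.0% over all genes. Grik4, a kainate receptor subunit, was at 648, 662 and 381 CPM in CA2 nuclei, against 153, 215 and 216 CPM in CA1 nuclei (1.56 ± 0.22, adjusted p = 0.000888). It was not called against CA3. Grid1, a delta glutamate receptor, was higher than in both, at 745, 962 and 1054 CPM in CA2 nuclei, against 359.5, 367 and 433 CPM in CA3 nuclei (1.25 ± 0.18, adjusted p = 0.00175). The kainate receptor gene Grik2 was at 918, 453 and 451 CPM in CA2 nuclei, against 1656, 1424 and 1166 CPM in CA3 nuclei (-1.25 ± 0.18, adjusted p = 0.0016). Without mouse 2, 1 was called higher and 2 lower than in CA1 and 0 in either direction against CA3. Adjusted p against CA3 was then 0.0626 for Grid1 and 0.0782 for Grik2.

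Among 16 tested GABA receptor and chloride carrier genes, 2 were called lower than in CA1, or 12.5% beside 5.22% of all genes, and 0 lower than in CA3. Gabrg3, the gamma-3 subunit, was at 137, 73.2 and 15.4 CPM in CA2 nuclei, against 499.7, 518 and 600.1 CPM in CA1 nuclei (-2.73 ± 0.57, adjusted p = 0.0082). Gabra3 was the other gene called lower than in CA1, with a log2 fold change of -1.32 (adjusted p = 0.00697). Without mouse 2, 0 genes of this list were called in either comparison, with adjusted p = 0.115 for Gabrg3 and 0.0716 for Gabra3, and Gabra3 was not called without mouse 1 (adjusted p = 0.0911).

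**Figure D3:**
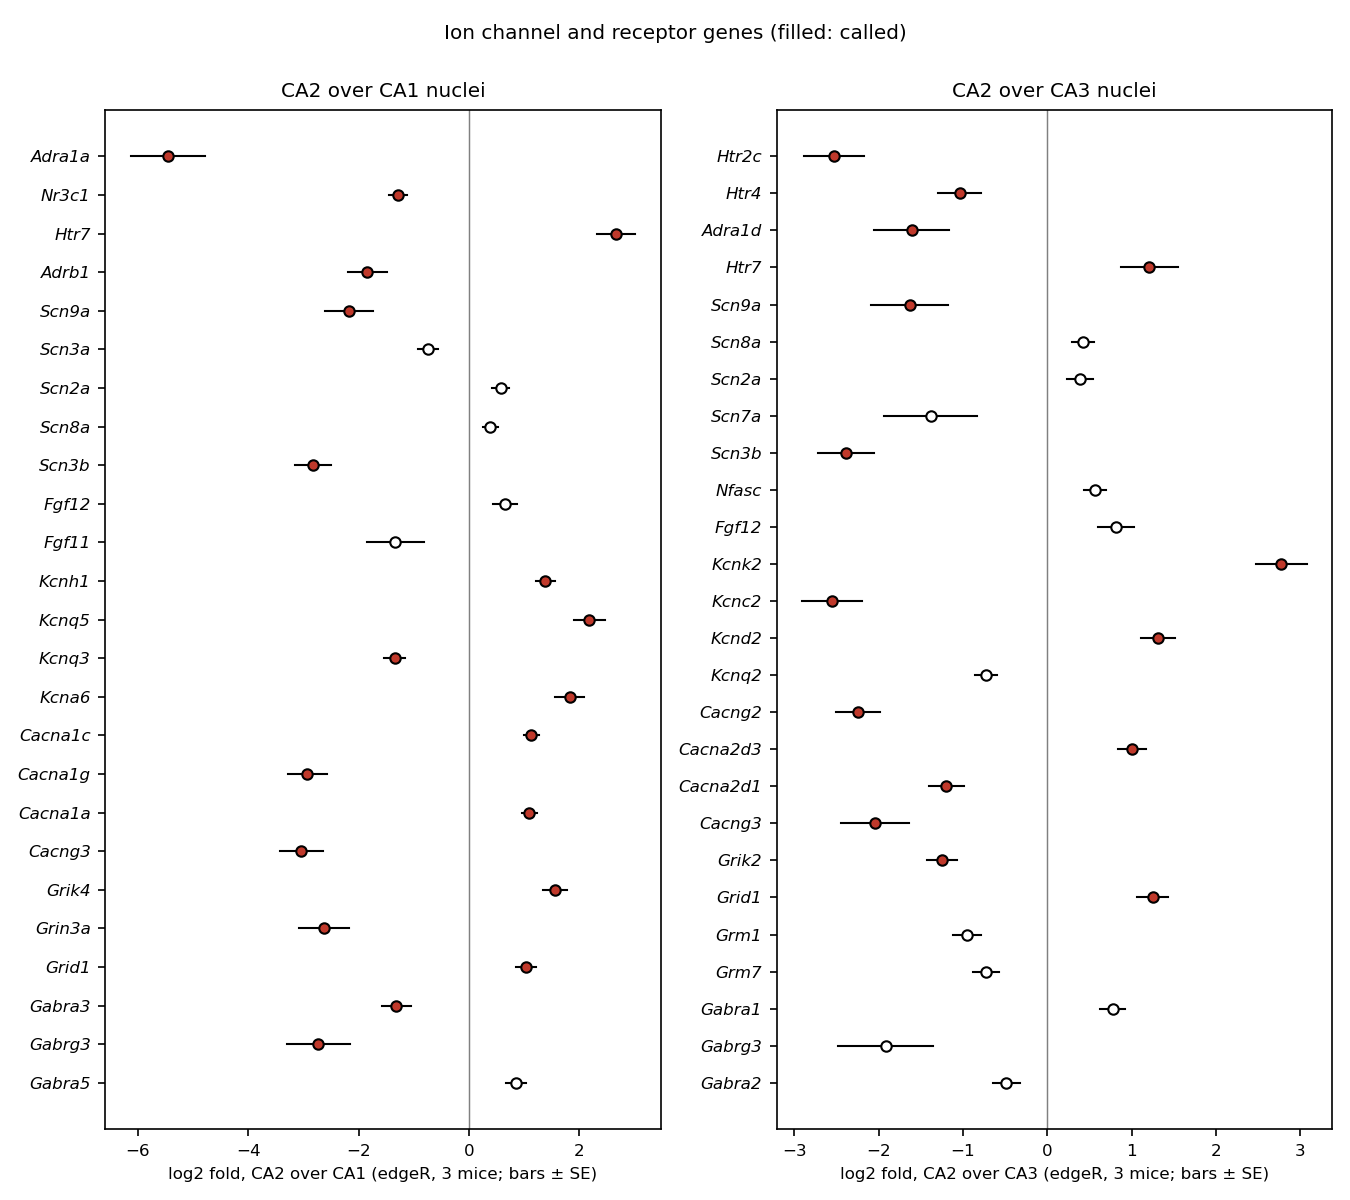
Log2 fold change of ion channel and receptor genes, at most 4 per list by adjusted p, in CA2 over CA1 nuclei (left) and CA2 over CA3 nuclei (right), from edgeR over 3 mice, with bars of ± 1 SE. Filled points were called; Kcnq5 at 2.19 and Scn3b at -2.83 over CA1 mark the spread, and Scn8a is an open point at 0.38 and 0.43.

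Perineuronal net and matrix genes, 12 of 16 tested, had 1 called higher and 2 lower than in CA1 and 0 higher and 3 lower than in CA3. These are 8.33% higher and 16.7% lower than in CA1, beside 4.13% and 5.22% of all genes, and 0% higher and 25% lower than in CA3, beside 2.66% and 4.0%. Acan, the net's main proteoglycan aggrecan, was at 10.01, 9.99 and 63.7 CPM in CA2 nuclei, against 0.200, 0.176 and 21.8 CPM in CA1 nuclei (2.45 ± 0.59, adjusted p = 0.0167). It had 11 and 3 CA2 UMIs in mice 1 and 2, and its level in CA1 nuclei of mouse 3 lay above these CA2 values. Its call was lost without mouse 2 (adjusted p = 0.113) and without the mouse block (adjusted p = 0.716). Tnr, the matrix protein tenascin-R and also 1 of the 8 oligodendrocyte precursor markers, was at 245, 219.7 and 163 CPM in CA2 nuclei, against 414, 406 and 534 CPM in CA1 nuclei (-1.03 ± 0.22, adjusted p = 0.00959). Tnc, tenascin-C, had 0, 0 and 8 CA2 UMIs, or 0, 0 and 8.79 CPM, against 0.762, 32.3 and 152 CPM in CA1 nuclei (adjusted p = 0.00199) and 0.741, 19.5 and 263 CPM in CA3 nuclei (adjusted p = 0.00231). Without mouse 3 neither tenascin was called lower than in CA1, with adjusted p = 0.0894 for Tnc and a log2 fold change of -0.75 for Tnr. Tnr was not called without mouse 2 (adjusted p = 0.0949), and Tnc not against CA3 without mouse 3 (adjusted p = 0.177). Chst11, which sulphates chondroitin chains, was at 96.4, 59.9 and 113 CPM in CA2 nuclei, against 194, 247 and 386 CPM in CA3 nuclei (-1.51 ± 0.19, adjusted p = 0.000712).

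Growth factor genes, 25 of 29 tested, had 3 called higher and 7 lower than in CA1, and 3 higher and 3 lower than in CA3. The shares are 12% higher and 28% lower against CA1, where all genes gave 4.13% and 5.22%, and 12% higher and 12% lower against CA3, where they gave 2.66% and 4.0%. Igf1r, the receptor of insulin-like growth factor, was at 436, 446 and 563 CPM in CA2 nuclei, against 116, 105 and 94.9 CPM in CA1 nuclei (2.25 ± 0.23, adjusted p = 9.57e-05). Igfbp4, a binding protein for that factor, was at 15.5, 36.6 and 50.5 CPM in CA2 nuclei, against 1.06, 3.66 and 1.27 CPM in CA3 nuclei (4.38 ± 0.57, adjusted p = 0.000875). Sorcs3 (chromosome 19, 48206025 to 48805505), a sortilin-family receptor, was at 64.6, 69.9 and 74.7 CPM in CA2 nuclei, against 631, 1295 and 2226 CPM in CA1 nuclei (-3.98 ± 0.58, adjusted p = 0.000965). The CA2 level of Sorcs3 was nearly the same in the 3 mice, while the CA1 level spread more than 3-fold. Igf1r was not called against CA3. Without mouse 2, 3 genes of the list were called higher and 2 lower than in CA1, and 3 higher and 1 lower than in CA3.

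The ligand genes Bmp3 and Fgf10 were low in CA2 nuclei, with 4 and 3 UMIs over the 3 mice. Bmp3 was at 21.8, 34.4 and 31.2 CPM in CA1 nuclei (adjusted p = 0.000494) and Fgf10 at 37.1, 28.05 and 29.1 CPM in CA3 nuclei (adjusted p = 0.0018). Vegfa, the vascular growth factor, was at 11.8, 13.3 and 8.79 CPM in CA2 nuclei, against 24.03, 36.6 and 66.5 CPM in CA3 nuclei (-1.91 ± 0.38, adjusted p = 0.00884), and its call was lost without mouse 2 (adjusted p = 0.0978) and without mouse 3 (adjusted p = 0.0591).

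Among 16 tested peptide and secretory granule genes, 0 were called higher than in CA1 or CA3, and 2 were called lower than in CA1 and 3 lower than in CA3. Over all genes 4.13% were called higher and 5.22% lower than in CA1, and in this list 0% higher and 12.5% lower. Against CA3 it was 0% higher and 18.8% lower, with 2.66% and 4.0% over all genes. Scg2, the granule protein secretogranin II, was at 22.7, 16.6 and 16.5 CPM in CA2 nuclei, against 85.6, 34.9 and 78.2 CPM in CA1 nuclei (-1.85 ± 0.26, adjusted p = 0.000713). The opioid peptide gene Penk was at 0, 0 and 6.59 CPM in CA2 nuclei, against 7.09, 8.25 and 81.8 CPM in CA1 nuclei (-3.58 ± 0.85, adjusted p = 0.0166). Vgf, a granule protein induced by activity and neurotrophins, was at 12.7, 23.3 and 18.7 CPM in CA2 nuclei, against 59.1, 33.8 and 53.7 CPM in CA3 nuclei (-1.68 ± 0.30, adjusted p = 0.0053). Adcyap1, the peptide PACAP, had no CA2 UMI in any mouse and was at 5.08, 3.66 and 12.5 CPM in CA3 nuclei (adjusted p = 0.0233). Without mouse 2, and likewise without mouse 3, 1 gene of the list was called lower than in CA3. Penk was not called without mouse 2 (adjusted p = 0.0838) or mouse 3 (adjusted p = 0.192), and Vgf not without mouse 1 (adjusted p = 0.077). Adcyap1 lost its call whichever mouse was left out (adjusted p = 0.0807, 0.0643 and 0.128 without mouse 1, 2 and 3).

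Genes of axon guidance and synaptic adhesion had 1 called higher and 14 lower than in CA1 among 57 tested, and 3 higher and 13 lower than in CA3. These are 1.75% higher and 24.6% lower than in CA1, beside 4.13% and 5.22% of all genes, and 5.26% higher and 22.8% lower than in CA3, beside 2.66% and 4.0%. Their median log2 fold change was -0.45 over CA1 and -0.26 over CA3. Cdh9, a cadherin of CA3 synapses, was at 42.8, 66.6 and 31.9 CPM in CA2 nuclei, against 485, 431 and 678 CPM in CA3 nuclei (-3.59 ± 0.26, adjusted p = 6.42e-05). Adgrl3, a latrophilin, was at 708, 616 and 569 CPM in CA2 nuclei, against 2369, 4139 and 3728 CPM in CA1 nuclei (-2.30 ± 0.21, adjusted p = 5.14e-05). Adgrl2, the latrophilin known for CA1 entorhinal synapses, was at 31.8, 6.66 and 7.69 CPM in CA2 nuclei, against 177, 139 and 182 CPM in CA1 nuclei (-3.09 ± 0.45, adjusted p = 0.00097).

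The teneurin gene Tenm2, a partner of latrophilins, had a log2 fold change of -1.92 over CA1 (adjusted p = 0.00036). On the higher side, Lrrtm4, a postsynaptic organiser, was at 2508, 2497 and 2793 CPM in CA2 nuclei, against 1051, 813 and 748 CPM in CA3 nuclei (1.59 ± 0.18, adjusted p = 0.00032). Flrt2, a latrophilin ligand, was at 360.3, 349.5 and 249 CPM in CA2 nuclei, against 129.8, 134 and 127 CPM in CA3 nuclei (1.30 ± 0.18, adjusted p = 0.00142). Without mouse 2, 7 adhesion genes were called lower than in CA1 and 4 lower than in CA3. Flrt2 was then not called (adjusted p = 0.0521).

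Some activity-regulated genes, which neurons switch on after strong firing, were called lower in CA2 than in CA1 or CA3, and none was called higher over the 3 mice. Of 32 listed genes 30 were tested, and 7 were called lower than in CA1 and 11 lower than in CA3. These are 23.3% and 36.7%, where 5.22% and 4.0% of all genes were called lower. The other 23 and 19 tested members were not called. Their median log2 fold change was -0.72 over CA1 and -1.06 over CA3, beside -0.07 and -0.06 over all genes. These counts depended on the fit: without the mouse block 0 of 30 were called in either comparison. Without mouse 1, 2 were called higher (Npas4 and Nr4a3) and 2 lower than in CA1, and 3 lower than in CA3, and without mouse 2, 1 was called lower in each.

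Egr3, an early growth response transcription factor, was at 25.5, 9.99 and 7.69 CPM in CA2 nuclei, against 90.1, 18.1 and 30.6 CPM in CA1 nuclei (-1.69 ± 0.27, adjusted p = 0.00154). Egr1 was at 17.3, 3.33 and 18.7 CPM in CA2 nuclei, against 58.7, 10.4 and 37.9 CPM in CA1 nuclei (-1.38 ± 0.27, adjusted p = 0.00558). Both were lower in CA2 than in CA1 within each mouse, although values of different mice overlap, and neither call held without mouse 1 (adjusted p = 0.0638 and 0.117). Homer1, a postsynaptic scaffold with an activity-induced short form, was at 306, 449 and 419 CPM in CA2 nuclei, against 578, 766 and 1138 CPM in CA3 nuclei (-1.05 ± 0.22, adjusted p = 0.0113), and here no values overlapped. Without mouse 2 neither Egr1 (adjusted p = 0.0553) nor Homer1 (adjusted p = 0.0782) was called, and Homer1 not without mouse 3 (adjusted p = 0.0579).

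Ptgs2, cyclooxygenase 2, was at 54.6, 23.3 and 156 CPM in CA2 nuclei, against 191, 53.7 and 265 CPM in CA3 nuclei (-1.15 ± 0.23, adjusted p = 0.0103), and Inhba, a subunit of activin, at 10.01, 19.97 and 25.3 CPM in CA2 nuclei, against 21.4, 91.3 and 284 CPM in CA1 nuclei (-2.65 ± 0.59, adjusted p = 0.0119). The values of both genes overlapped between the classes across mice, though each was lower in CA2 within every mouse. The call of Ptgs2 was lost without mouse 1 (adjusted p = 0.111) and mouse 2 (adjusted p = 0.0643), and that of Inhba without mouse 2 (adjusted p = 0.087) and mouse 3 (adjusted p = 0.142). Not every member lay lower, for Npas4, a neuron-specific activity factor, was at 97.3, 26.6 and 111 CPM in CA2 nuclei and 112, 9.13 and 56.02 CPM in CA1 nuclei. It was singled out after its values were seen.

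Within CA2 nuclei, activity genes were higher in mouse 1 and mouse 3 than in mouse 2. In CA2 nuclei of mouse 1, 26 of 32 were higher than in mouse 2, with a median log2 ratio of 1.45, and in mouse 3, 28 of 32 with 1.57. The medians over all genes were 0.15 and -0.16. CA1 and CA3 nuclei of the same mice had medians of 1.31 and 1.60 for mouse 1 over mouse 2. With 1 library per mouse this has no test, and mouse 2 was also the shallowest library. Of 14 tested stress and RNA quality genes, 0 were called higher and 1 lower than in CA1 and in CA3. This is 7.14% lower in each, beside 5.22% of all genes against CA1 and 4.0% against CA3. The gene was Xbp1, at 10.9, 9.99 and 2.2 CPM in CA2 nuclei, against 25.9, 22.5 and 15.5 CPM in CA1 nuclei (adjusted p = 0.00688) and lower than in CA3 (adjusted p = 0.00488). Without mouse 2 its adjusted p was 0.0623 and 0.0643.

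**Figure D4:**
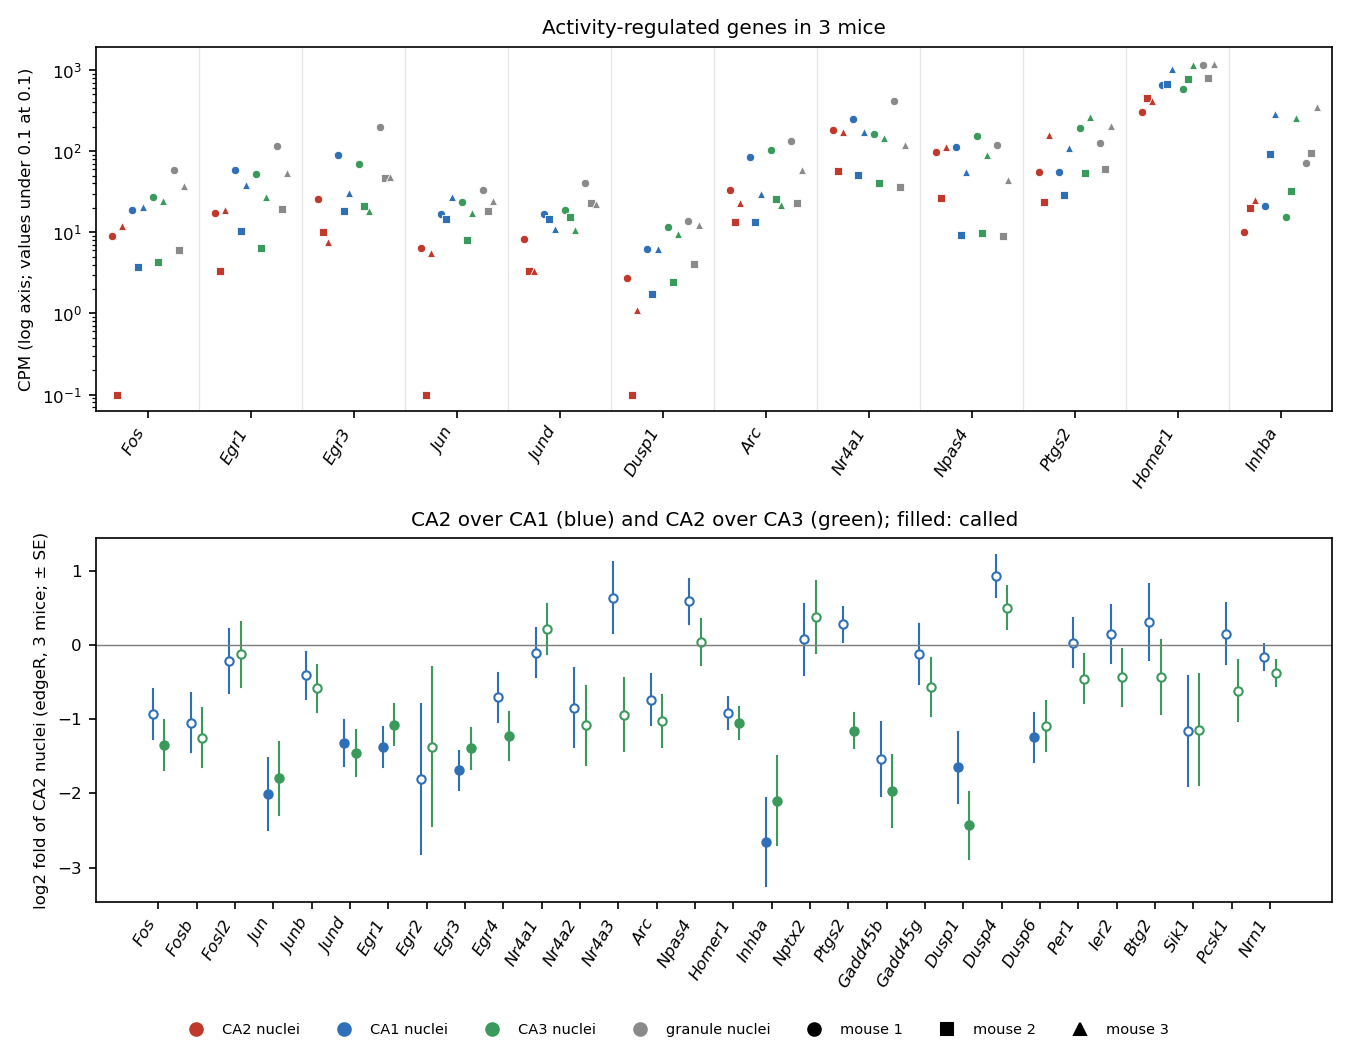
Upper panel, level in CPM (log axis, values under 0.1 drawn at 0.1) of 12 activity-regulated genes in CA2, CA1, CA3 and granule nuclei, with 1 symbol per mouse. Lower panel, log2 fold change of the 30 tested members in CA2 over CA1 and CA2 over CA3 nuclei (edgeR, 3 mice, bars ± 1 SE), where the filled points, which were called, lie at -1 or lower.

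Against dentate granule nuclei, 732 of 7343 genes were at least 2-fold higher (9.97%) and 866 at least 2-fold lower (11.8%) in mouse 1, 21.8% in all. Over the 3 mice 1119 were called higher (8.0%) and 1181 lower (8.45%), 16.5% in all. The granule class is a selected one, since the limit on Gad1 and Gad2 removed 758 of 1661, 210 of 591 and 1035 of 1103 nuclei with granule markers. St8sia6 was at 111, 153 and 81.3 CPM in CA2 nuclei, against 0.955, 5.16 and 0.652 CPM in granule nuclei (5.94 ± 0.40, adjusted p = 3.41e-06). Hcrtr2, an orexin receptor, was at 100.1, 136 and 304 CPM in CA2 nuclei, against 1.15, 4.59 and 16.95 CPM in granule nuclei (5.17 ± 0.50, adjusted p = 2.56e-05). Luzp2, a leucine zipper protein, was at 1289, 2793 and 4630.4 CPM in CA2 nuclei, against 39.1, 177 and 243 CPM in granule nuclei (4.44 ± 0.46, adjusted p = 4.45e-05). In all 3 genes the lowest CA2 value was above the highest granule value.

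The phospholipase Plch2 and the adaptor gene Fyb2 were also higher than in granule nuclei, with log2 fold changes of 4.47 and 5.31 (adjusted p = 2.41e-06 and 2.41e-06). Penk, the enkephalin precursor, was at 0, 0 and 6.59 CPM in CA2 nuclei, against 111, 33.8 and 299 CPM in granule nuclei (-6.27 ± 0.74, adjusted p = 0.000108). Sema3a, a repulsive guidance cue, had 2 CA2 UMIs over the 3 mice and was at 52.99, 48.7 and 195 CPM in granule nuclei (adjusted p = 7.34e-06). Lemd1 had no CA2 UMI and was at 29.4, 41.3 and 15.00 CPM in granule nuclei (adjusted p = 9.63e-05).

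Gsg1l, which tunes AMPA receptors, was at 5.46, 0 and 0 CPM in CA2 nuclei, against 177, 160.2 and 20.9 CPM in granule nuclei (-5.31 ± 0.95, adjusted p = 0.00176), and Tgfbr2, a receptor of transforming growth factor beta, had 2 CA2 UMIs. Of 30 tested activity-regulated genes, 0 were called higher and 20 lower than in granule nuclei (0% and 66.7%, beside 8.0% and 8.45% of all genes). That count was 3 without the mouse block. Of 13 tested CA2-enriched genes 12 were called higher (92.3%, beside 8.0% of all genes). Pcp4 was not, at 61.9, 86.6 and 61.5 CPM in CA2 nuclei, against 42.8, 34.4 and 8.48 CPM in granule nuclei (adjusted p = 0.0549).

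Most CA2 nuclei of each mouse had a UMI of Strip2, a share that depth also sets. Strip2 had a UMI in 78.7%, 66.7% and 94.1% of CA2 nuclei, against 12.2%, 4.63% and 15.3% of CA1 nuclei. In nuclei with oligodendrocyte markers, which were taken as a background and are far shallower (median 2861, 1692.5 and 6243 UMIs), the share was 1.06%, 1.83% and 11.8%. Whether these nuclei express Strip2 or Pcp4 themselves was not tested. After thinning every nucleus to 3000 UMIs, which left out 1 CA2 nucleus of mouse 2, Strip2 was detected in 44.7%, 41.2% and 41.2% of CA2 nuclei and 2.42%, 0.59% and 2.03% of CA1 nuclei. Nuclei with oligodendrocyte markers then had shares of 1.15%, 2.44% and 6.65%, so the CA1 shares did not stand above this background in mice 2 and 3, while the CA2 shares did in all 3.

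Pcp4 was detected in 25.5%, 29.4% and 23.5% of thinned CA2 nuclei, against 6.15%, 6.86% and 3.96% of thinned CA3 nuclei. Nuclei with oligodendrocyte markers had 5.77%, 6.0% and 5.44%, so the CA3 shares lay near this background. Vit had a UMI in 11 of 47, 1 of 17 and 0 of 17 thinned CA2 nuclei. A count of 0 in 17 allows up to 17.6% of nuclei with a UMI at that depth, and is no limit on nuclei that express the gene: unthinned, Vit had a UMI in 59.6%, 16.7% and 35.3% of CA2 nuclei. Avpr1b had a UMI in 1, 1 and 0 thinned CA2 nuclei, too few to order the mice.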

How the data were processed

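Nuclear RNA of the hippocampus of 3 mice was counted in 1 library per mouse. Raw UMI counts for each gene in each barcode were deposited. Per the file headers, the authors made them with Cell Ranger 7.0.0 (mice 1 and 2) or 7.1.0 (mouse 3), and per the submitters' processing notes the build was mm10. The treatment of introns in counting was not given in the sources. Gene positions come from an annotation of that build.

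CA2 nuclei were taken by the rule given above. CA1, CA3 and granule nuclei needed at least 3 of 6 markers of their own summing to 5 or more per 10000 UMIs, a minimum set after the distribution was seen, and had to meet no other gate. Their nuclei met the same limits on genes, Slc17a7, Gad1 and Gad2. The markers included Fibcd1, Wfs1, Mpped1, Pou3f1 and Man1a for CA1, and were Iyd, Tspan18, Galnt3, Cpne4, Prkcd and Homer3 for CA3, and Prox1, C1ql2, Dsp, Lct, Stxbp6 and Glis3 for granule nuclei. Some CA2 nuclei also met another gate and were kept (11, 1 and 3 the CA3 gate, 3, 0 and 0 the CA1 gate, 2, 0 and 0 the granule gate).

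Counts were summed per mouse and class, without the genes of the gates among the tested ones. In mouse 1 alone, CPM ratios used a pseudocount of 1 CPM and genes with at least 20 CPM in the higher class. The plan was to test libraries with 20 or more CA2 nuclei, and with 1 such library this gave no test. The test over 3 mice was therefore added after the numbers of nuclei were seen. It used edgeR 4.0.16 in R 4.3.3 with TMM scaling, filterByExpr and the mouse as a block. The block follows from the design, since all 4 sums of a mouse come from 1 animal. After removal of class means, CA2 sums correlated with CA1 and CA3 sums of the same mouse at 0.294 and 0.265, 0.176 and 0.117, and 0.333 and 0.355 over 14006 genes, which are not independent.

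The fit was tested on simulated data with known changes before use. The simulation gave the sums of all classes the same spread beyond counting error. It therefore did not cover a larger spread of CA2 sums, which hold few nuclei, or genes carried by a single nucleus.

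Named genes were, per comparison, the 8 with the largest and the 6 with the smallest log2 ratio in mouse 1, without predicted genes, up to 4 per list with the smallest adjusted p, all known CA2-enriched genes and Scn8a. Genes named to describe the classes, and Npas4, were added to these. The results of some genes that this rule names are not reported here. The members of every list, and the CA2 rule itself, were chosen with earlier results of these data known. Clustering used scanpy 1.11.5 and leidenalg 0.10.2 on 3000 variable genes, 40 components, 15 neighbours and resolution 2.5. Doublets were called in each library and only marked. Alternatives tried were DESeq2 1.42.0, other scaling, filters, gates, thinning and leaving out each mouse. Promoters were read from RefSeq tables.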

Additional observations from a re-analysis of the deposited data

How the results depend on the processing

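In mouse 1 alone, 883, 709 and 1598 genes passed 2-fold against CA1, CA3 and granule nuclei. These numbers rose to 3026, 2795 and 4284 with no filter on low values and to 1877, 1942 and 2640 after thinning to 3000 UMIs. With at least 4 of 6 markers and a sum of 5, which left 15 nuclei, they were 1681 and 1494 against CA1 and CA3. Over the 3 mice, 1308, 931 and 2300 genes were called. Without the replicate block 698 and 377 were called against CA1 and CA3. After thinning 344, 195 and 804 were called, and with equal numbers of nuclei 790, 566 and 1317. Leaving out each mouse in turn gave 611 to 1116 calls against CA1, 253 to 814 against CA3 and 1583 to 1937 against granule nuclei. Of the named genes called against CA1, 46 of 69 stayed called without the block, 55 of 69 without mouse 2 and 34 of 65 after thinning. Against CA3, 36 of 64, 31 of 64 and 25 of 57 stayed called, and none turned. The direction of 4 named results changed. Cpa6 over CA1 was at 0.85 with classes taken from clusters, Scn8a over CA1 at -0.025 and Hsph1 over CA3 at 0.00059 after thinning, and Scn2a over CA3 at -0.13 with 4 of 6 markers. None of these 4 was called in the main comparison, and the cause was not tested. Scn8a in CA2 nuclei of mouse 1 was at 390.1 CPM after thinning, against 493 CPM as counted.

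The number of CA2 nuclei depended on the rule. With at least 2 of 6 markers it was 100 and 61 in mice 1 and 2, and with 4 of 6 markers and a sum of 5 it was 15, 3 and 4. A sum of 2 gave 75 in mouse 1 and 33 in mouse 3, and a sum of 5 gave 18 and 4. After thinning 3, 2 and 0 nuclei were left, and 31 in mouse 1 met no other gate. The depth of mouse 2 and the 17 or 18 nuclei of mice 2 and 3 limit what can be called for genes of few UMIs.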
